A study of Homo sapiens with 6 samples.

Results

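The genes described here are 10 markers of mast cells, basophils and eosinophils, chosen by symbol: HDC, CPA3, TPSAB1, TPSB2, MS4A2, MS4A3, FCER1A, CLC, EPX and PRG2. All 10 were found among the 62754 gene rows of each table. The cells were HUDEP-2, a human line of red cell precursors made to grow without limit, whose hemoglobin is mostly of the adult type. The series concerns the MLL1 complex, of which menin, the product of MEN1, is a subunit, and the repression of fetal hemoglobin. One group of 3 libraries came from cells carrying a lentiviral shRNA against MEN1, named MEN1sh2 in the labels, and the other group of 3 from cells carrying a non-targeting control shRNA, Controlsh. Both groups grew in StemSpan SFEM medium with EPO (3 units per ml), SCF (50 ng per ml), dexamethasone (1e-06 M) and doxycycline (1 µg per ml). Puromycin (2 µg per ml) was added to both 24 h after infection and kept for 48 h, and RNA was profiled at 72 h. Only 1 MEN1 hairpin was used, so an effect of losing menin and an off-target effect of the hairpin cannot be told apart. The labels call the 3 libraries of a group biological replicates.

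Mast cells, basophils and eosinophils are granulocytes of allergy and of the defence against parasites. They store proteases, histamine or cationic proteins in granules, and mast cells and basophils bind IgE through the high-affinity receptor FcεRI. SCF, present in the medium here, is the growth factor of mast cells as well as of erythroid progenitors, and GATA2 and GATA1 act in the formation of both lineages. The tryptases TPSAB1 and TPSB2 and the carboxypeptidase CPA3 are mast cell granule proteases. HDC makes histamine. FCER1A and MS4A2 encode the alpha and beta chains of FcεRI. MS4A3 marks granulocyte progenitors, basophils and eosinophils, CLC encodes the Charcot-Leyden crystal protein, EPX is eosinophil peroxidase, and PRG2 is eosinophil major basic protein.

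GATA1 and GATA2 bind motifs of the GATA type, and both were measured in the same libraries, so the promoters of the members were read for such a motif. RefSeq promoters (GRCh38.p14) were on hand for 6 of the 10 members. No promoter is shown for TPSAB1, TPSB2, EPX and PRG2, so none of the members found lower with the MEN1 shRNA was searched. The 250 bases before the RefSeq start were searched for AGATAA on both strands, that is for AGATAA or TTATCT, neither of which overlaps the other. The RefSeq start can differ from that of the gene row. The matches found in MS4A2, MS4A3 and FCER1A lie inside the spans of their gene rows given below, not before them. The HDC window (chr15:50265727-50265976, minus strand) also lies mostly inside its gene row, which ends at 50265965. The motif was chosen after the sequences had been seen, so setting the members beside all windows is no test of enrichment. CPA3, MS4A2, MS4A3, FCER1A and CLC had a match and HDC had none, 5 of 6, while 9.17% of all 35116 RefSeq promoter windows of that length had one. CPA3 had 2 matches, which 0.803% of all windows reached. The windows of CPA3 (chr3:148865046-148865295, plus strand) and MS4A2 (chr11:60088414-60088663, plus strand) are given whole, because these 2 were the genes with a match whose TPM was above 0 in every library; capitals mark the motif.
CPA3: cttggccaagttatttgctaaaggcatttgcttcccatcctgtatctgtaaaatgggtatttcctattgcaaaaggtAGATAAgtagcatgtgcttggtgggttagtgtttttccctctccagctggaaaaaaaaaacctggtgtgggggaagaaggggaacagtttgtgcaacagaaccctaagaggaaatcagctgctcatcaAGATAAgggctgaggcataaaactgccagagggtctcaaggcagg
MS4A2: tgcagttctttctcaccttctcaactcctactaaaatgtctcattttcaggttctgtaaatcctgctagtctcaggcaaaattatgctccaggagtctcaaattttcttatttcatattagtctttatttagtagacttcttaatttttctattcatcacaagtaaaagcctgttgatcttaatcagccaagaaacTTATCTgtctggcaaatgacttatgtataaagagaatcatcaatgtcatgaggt
For the other 3 genes with a match, the motif is given with 12 bases on each side, read in the direction of the gene: MS4A3 (chr11:60056598-60056627, plus strand), FCER1A (chr1:159302202-159302231, plus strand) and CLC (chr19:39738218-39738247, minus strand).
MS4A3: tgcataaggcaaAGATAAcgttaagtctgt
FCER1A: ccatcctgaataTTATCTctaaagaaagaa
CLC: actccatcgtctTTATCTgtgcatttccct
A match is a description of the letters and shows no binding.

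The deposited values are TPM, transcript abundances scaled for gene length, so that each library has the same total. Inferred depth was 18400000 to 35800000 read pairs per library. MEN1 itself was at 6.29, 6.44 and 6.88 TPM in the MEN1 shRNA libraries and at 41.2, 39.6 and 37.1 TPM in the controls. Globin transcripts took 9.21% to 10.4% of TPM with the MEN1 shRNA and 5.23% to 5.78% in the controls; TPM is a share, so the other genes share what remains. Genes with at least 1 TPM in at least 3 of the 6 libraries were compared on the log2(TPM + 1) scale with limma, adjusted by Benjamini-Hochberg over the 14294 genes tested, at a threshold of 0.05. Fold changes on that scale understate the change of low genes. These are bulk libraries, so fewer cells of a type and less RNA per cell cannot be told apart.

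Of the 10 members, 4 passed the filter: TPSAB1, TPSB2, PRG2 and MS4A2. The first 3 were lower with the MEN1 shRNA, none was higher, and MS4A2 did not pass the threshold. Across all genes tested, 31.5% were called lower and 53.6% were called in either direction, so a call was common in this comparison. In each of the 3 lower members the groups did not overlap, as in 35.9% of all genes tested in that direction and 61.8% in either. The remaining 6 members, HDC, CPA3, MS4A3, FCER1A, CLC and EPX, stayed below 1 TPM in all 6 libraries and are too low to compare. The plot of TPM by library shows this split.

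**Figure D1:**
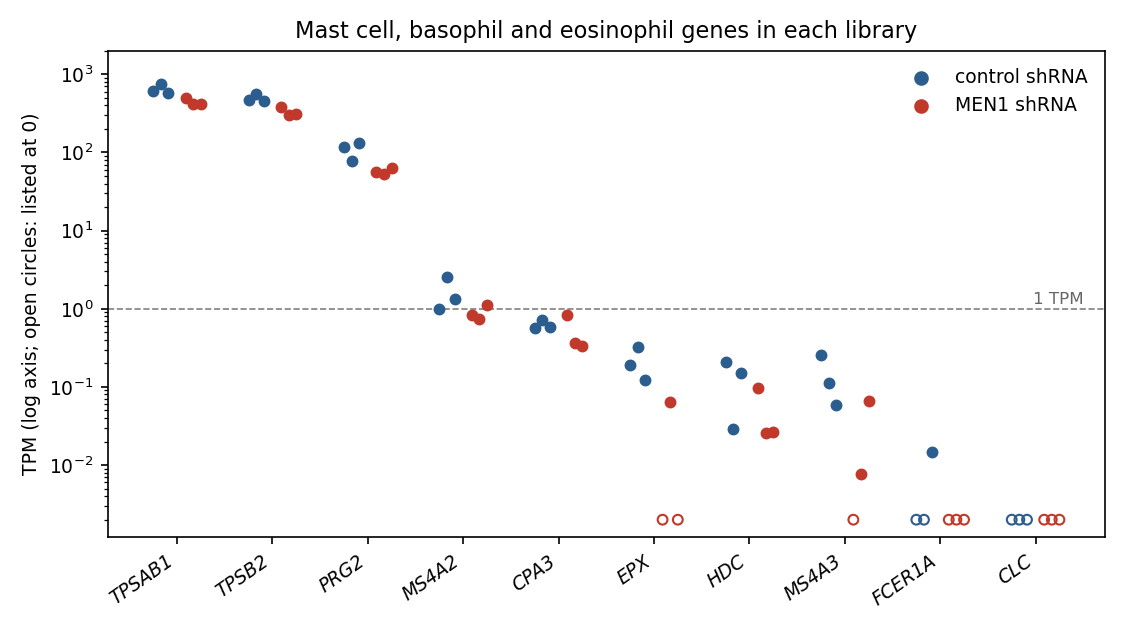
TPM of each of the 10 genes (log axis) in the 3 control shRNA libraries (blue) and the 3 MEN1 shRNA libraries (red), with 1 point per library and open circles for genes listed at 0. TPSAB1, TPSB2 and PRG2 lay far above the dashed line at 1 TPM, MS4A2 straddled it, and the other 6 genes lay below it in every library.

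The tryptases were by far the most abundant members. TPSAB1 (ENSG00000172236, hg38 chromosome 16, 1240379 to 1242554, plus strand) and TPSB2 (ENSG00000197253, chromosome 16, 1227272 to 1230184, minus strand) encode the alpha/beta and beta-2 tryptases, trypsin-like proteases that make up much of the mast cell granule. In control replicates 1, 2 and 3, TPSAB1 measured 609.7, 747 and 575 TPM, and in MEN1 shRNA replicates 1, 2 and 3 it measured 503, 421 and 421 TPM. Every MEN1 shRNA library lay below every control library. Ranked by TPM among all gene rows, TPSAB1 stood between place 148 and place 292 in the 6 libraries. Its mean fell from 644 ± 90.7 to 448 ± 47.4 TPM (SD, n = 3 each), 69.6% of the control level, with a log2 fold change of -0.52 (SE 0.113, 95% interval -0.78 to -0.25, limma adjusted p 0.00621).

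TPSB2 was at 471, 557 and 459.8 TPM in the controls and at 380.2, 303 and 306 TPM with the MEN1 shRNA, again with no overlap. It stood between place 199 and place 437. Its mean fell from 496 ± 53.2 to 329.8 ± 43.7 TPM (SD, n = 3 each), 66.5% of the control level, with a log2 fold change of -0.59 (SE 0.110, 95% interval -0.85 to -0.33, limma adjusted p 0.0029). In both genes, control replicate 2 was the highest library and MEN1 shRNA replicate 1 the highest of its group.

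The tryptase transcripts are near-identical, so the division of reads between them is uncertain. In GENCODE v29 the TPSAB1-201 and TPSB2-201 transcripts differ at 15 of 1165 aligned bases (98.71% identity), and their longest identical run is 682 bases. The ratio of TPSAB1 to TPSB2 TPM was 1.25 to 1.39 in the 6 libraries. Their sum does not depend on how reads were divided between them. It was 1080.5, 1304 and 1035 TPM in the controls and 883, 724 and 727 TPM with the MEN1 shRNA, so that together they held 0.0724% to 0.130% of all TPM. The sum fell from 1139.6 ± 144 to 778 ± 91.1 TPM (SD, n = 3 each), 68.3% of the control level (log2 fold change -0.55, SE 0.112, limma adjusted p 0.00435). An exact permutation test of the sum (2-sided) gave p = 0.1, the lowest value possible with 3 libraries a group.

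TPSG1 and TPSD1, the gamma and delta tryptases, are the other tested tryptase genes of the cluster on chromosome 16. TPSG1 was named by the rule; TPSD1 was named after its values were seen, to complete the cluster. TPSG1 was at 58.6, 69.8 and 60.4 TPM in the controls and at 37.2, 29.8 and 36.1 TPM with the MEN1 shRNA (log2 fold change -0.86, SE 0.106, limma adjusted p 0.000395). TPSD1 was at 65.8, 79.1 and 62.6 TPM in the controls and at 45.1, 36.9 and 36.7 TPM with the MEN1 shRNA (log2 fold change -0.79, SE 0.115, limma adjusted p 0.00087). Both fell, with no overlap between the groups. TPSD1 shares 89.63% of 1013 aligned bases with TPSAB1, so some of its reads may belong to the more abundant genes, while TPSG1 shares 70.56% of 676 aligned bases. TPSG1 lies across an unnamed antisense gene, ENSG00000277010, which fell too (from 28.6 ± 5.23 to 11.1 ± 2.23 TPM). Whether the counting used strand is not stated, so reads of TPSG1 and of this gene cannot be told apart.

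The genes around the cluster were listed after the data were seen. Within 100 kb of its ends, 7 other genes were tested, of which 5 were lower with the MEN1 shRNA and 1 was higher. Across all genes tested, 31.5% were called lower and 22.1% higher. The 7 are not all separate measures. Among them, ENSG00000277010 lies inside TPSG1 and ENSG00000261294 inside CACNA1H, each on the opposite strand, so reads may be shared. On the TPSG1 side lies CACNA1H, a calcium channel gene that ends inside TPSG1 on the opposite strand, and it fell from 5.32 ± 1.32 to 2.44 ± 0.358 TPM. On the TPSD1 side BAIAP3 was at 0.680 ± 0.172 TPM in the controls and 4.31 ± 0.668 TPM with the MEN1 shRNA, and it passed the filter through the MEN1 shRNA libraries alone. GNPTG, also on that side, encodes a subunit of a lysosomal enzyme-tagging transferase and fell from 33.7 ± 2.14 to 20.8 ± 1.51 TPM.

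**Figure D2:**
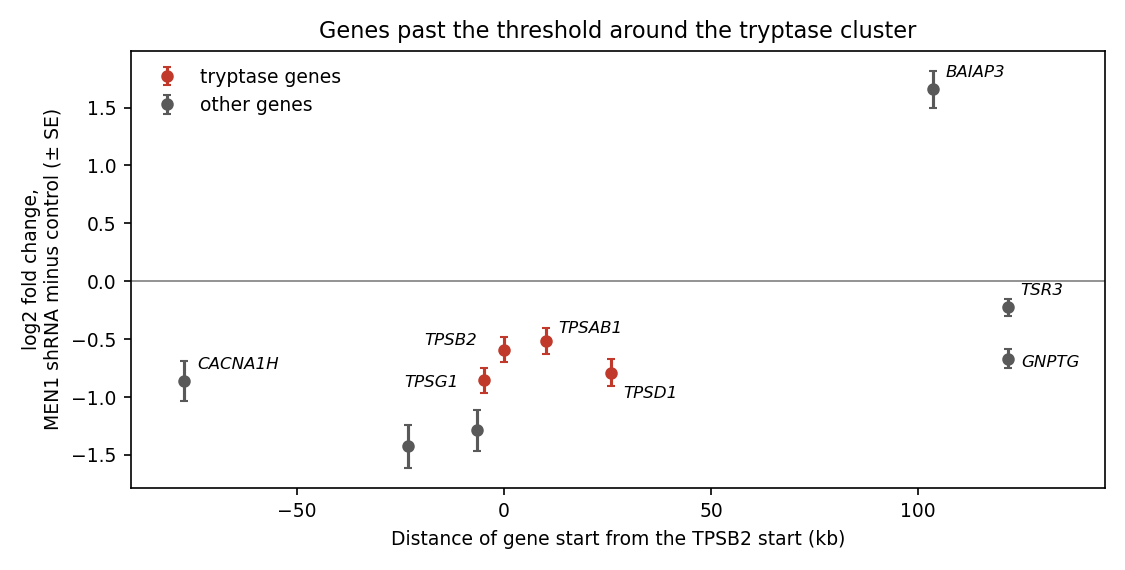
Log2 fold change (MEN1 shRNA minus control shRNA, 3 libraries each, bars ± SE from limma) of the genes around the tryptase cluster that passed the threshold, against the distance of each gene's start from the TPSB2 start in kb. The 4 tryptase genes lay between -0.86 and -0.52. BAIAP3, at 1.66, passed the filter through the MEN1 shRNA libraries alone, where it was high. The 2 points without a name are unnamed antisense genes.

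PRG2 (ENSG00000186652, chromosome 11, 57386780 to 57390650, minus strand) encodes the cationic major basic protein of the eosinophil granule. In control replicates 1, 2 and 3 it measured 118, 78.5 and 132 TPM, and in MEN1 shRNA replicates 1, 2 and 3 it measured 55.8, 52.9 and 62.4 TPM. The groups did not overlap, although control replicate 2 lay nearer to the MEN1 shRNA libraries than to the other controls. Over the 6 libraries PRG2 stood between place 1171 and place 2954 by TPM. Its mean fell from 109 ± 27.6 to 57.0 ± 4.86 TPM (SD, n = 3 each), 52.2% of the control level, with a log2 fold change of -0.90 (SE 0.179, 95% interval -1.31 to -0.48, limma adjusted p 0.00396).

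PRG2 is overlapped on its own strand by ENSG00000254979 (chromosome 11, 57387365 to 57424059), a protein-coding gene without a name in the tables. That gene was at 10.9, 13.5 and 5.22 TPM in the controls and at 3.19, 7.59 and 1.13 TPM with the MEN1 shRNA. It held 1.78% to 14.7% of the TPM of the pair in a library. The sum of both, defined after the data were seen, was 129, 91.9 and 137 TPM in the controls and 59.0, 60.5 and 63.5 TPM with the MEN1 shRNA (log2 fold change -0.93, SE 0.140, limma adjusted p 0.001). Control replicate 2 remained the lowest control on the sum. PRG3, the neighbouring homolog of PRG2, is listed at 0 in all 6 libraries.

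**Figure D3:**
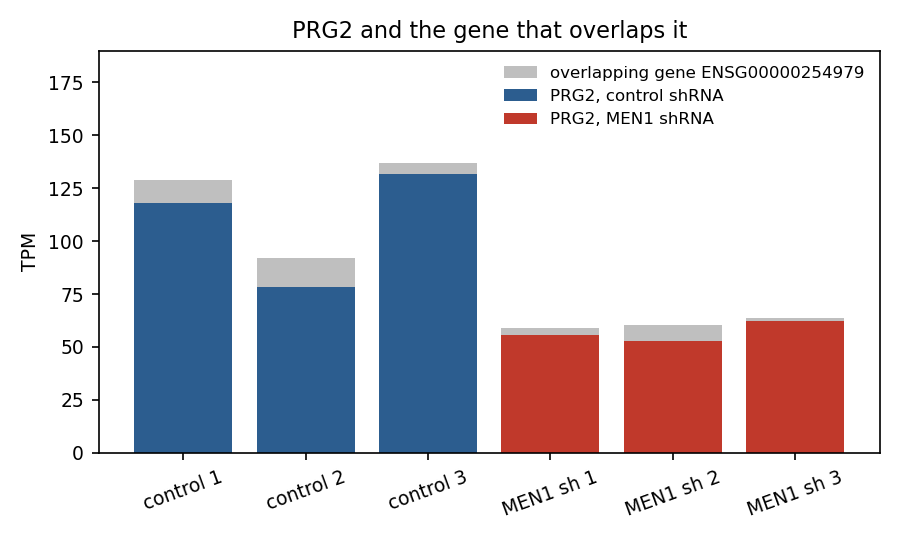
TPM of PRG2 (blue, control shRNA; red, MEN1 shRNA) and of the gene that overlaps it on the same strand (grey, stacked) in each of the 6 libraries. The stacked totals were 91.9 to 137 TPM in the controls and 59.0 to 63.5 TPM with the MEN1 shRNA.

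MS4A2 (ENSG00000149534, chromosome 11, 60088261 to 60098467, plus strand) encodes the beta chain of FcεRI, which amplifies the signal of the receptor. It was at 0.980, 2.55 and 1.32 TPM in the controls and at 0.826, 0.749 and 1.12 TPM with the MEN1 shRNA. The groups overlapped, because MEN1 shRNA replicate 3 lay above control replicate 1. The means were 1.62 ± 0.827 and 0.899 ± 0.198 TPM (SD, n = 3 each), and the log2 fold change of -0.42 did not pass the threshold (SE 0.239, 95% interval -0.98 to 0.13, limma adjusted p 0.176). The high value of control replicate 2 weighed on the difference: without it the log2 fold change was -0.18 (limma adjusted p 0.494). A change of MS4A2 in either direction was not resolved at these levels.

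The alpha chain of the receptor, which binds IgE, was barely detected. FCER1A (ENSG00000179639, chromosome 1, 159289714 to 159308224) is listed at 0 in 5 libraries and at 0.0146 TPM in control replicate 3. The gamma chain gene, FCER1G, reached at most 0.340 TPM in a library and did not pass the filter. The 3 subunit genes of FcεRI thus did not exceed the 2.55 TPM of MS4A2 in control replicate 2.

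CPA3 (ENSG00000163751, chromosome 3, 148865296 to 148897203), a zinc carboxypeptidase stored with the tryptases, was the highest of the genes too low to compare. It was at 0.564, 0.718 and 0.581 TPM in the controls and at 0.835, 0.364 and 0.331 TPM with the MEN1 shRNA, from about 5.1 to 20.9 read pairs a library, as inferred from FPKM, transcript length and depth. The MEN1 shRNA libraries lay on both sides of the controls. HDC (ENSG00000140287, chromosome 15, 50241947 to 50265965) was at 0.210, 0.0286 and 0.151 TPM in the controls and at 0.0982, 0.0260 and 0.0265 TPM with the MEN1 shRNA. These values rest on about 0.6 to 7.1 read pairs, and the groups overlapped.

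MS4A3 (ENSG00000149516, chromosome 11, 60056587 to 60071115) lies beside MS4A2 in the MS4A cluster and encodes a membrane protein of granulocyte progenitors. It was at 0.259, 0.111 and 0.0587 TPM in the controls. With the MEN1 shRNA it is listed at 0 in replicate 1 and was at 0.00776 and 0.0663 TPM in replicates 2 and 3. The groups overlapped, and no library held more than about 5.2 read pairs.

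EPX (ENSG00000121053, chromosome 17, 58192726 to 58205174), which makes hypohalous acids in the eosinophil, was at 0.193, 0.325 and 0.121 TPM in the controls. With the MEN1 shRNA it is listed at 0 in replicates 1 and 3 and was at 0.0641 TPM in replicate 2. All 3 controls thus lay above all 3 MEN1 shRNA libraries, and the largest value rests on about 14.3 read pairs. The same order held in 35.9% of the genes tested. Those passed the filter and EPX did not, so that share need not hold for genes this low. With the filter lowered to 0.1 TPM in 3 libraries, EPX was tested and did not pass (log2 fold change -0.25, limma adjusted p 0.103), nor did CPA3 (-0.12, adjusted p 0.622). An unnamed gene inside EPX on the opposite strand, ENSG00000278627, was at 1.04, 0.332 and 0.397 TPM in the controls and is listed at 0 in 2 of the 3 MEN1 shRNA libraries, where its other value was 0.197 TPM. As strand use in the counting is not stated, reads of EPX and of this unnamed gene cannot be told apart. CLC (ENSG00000105205, chromosome 19, 39731255 to 39738029), a lectin of eosinophils and basophils, is listed at 0 in all 6 libraries.

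By TPM, the order of the members with values above 0 in every library was TPSAB1, TPSB2, PRG2, MS4A2, CPA3 and HDC in the control means, and it was the same with the MEN1 shRNA. In each single library TPSAB1 lay above TPSB2 and TPSB2 above PRG2. MS4A2 and CPA3 were neighbours whose ranges crossed with the MEN1 shRNA, at 0.749 to 1.12 against 0.331 to 0.835 TPM. The abundant members therefore came from 1 gene cluster of mast cells and 1 granule gene of eosinophils.

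Other genes of these cells were read from lists covering granule and secretory genes, IgE receptor signalling, lipid mediators, eosinophil granules, surface receptors, transcription factors and MS4A neighbours, 77 genes in all. Of these, 48 passed the filter, 12 were higher, 22 were lower and 14 did not pass the threshold, where 22.1% of all genes tested were called higher and 31.5% lower. Of the 22 lower genes, 2 (LTC4S and CEBPA, named after their values were seen) reached 1 TPM in the controls alone, so they entered the test through the group where they were high. The median log2 fold change of the 48 related genes tested was -0.25, against -0.07 for all genes tested. The lists were not uniform, and several granule and lipid genes moved opposite to the tryptases.

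Among 8 tested granule and secretory genes, 3 were higher and 3 lower. SRGN, the serglycin core to which granule proteases bind, rose from 31.0 ± 0.644 to 82.9 ± 11.3 TPM (log2 fold change 1.38, limma adjusted p 5.2e-05). RAB27A, a GTPase of granule exocytosis, rose from 13.4 ± 0.709 to 40.6 ± 5.28 TPM (log2 fold change 1.52, limma adjusted p 4.3e-05). CMA1, the mast cell chymase, did not exceed 0.0536 TPM in any library, and CTSG, cathepsin G, is listed at 0 in all 6. In the eosinophil granule list both tested genes rose: CD63, a granule membrane tetraspanin found in many cell types, from 325 ± 16.1 to 707 ± 47.6 TPM, and SERPINB1, a protease inhibitor, from 8.14 ± 0.512 to 14.8 ± 0.939 TPM. The defining eosinophil granule genes on it, PRG3 and RNASE3, are listed at 0 throughout, and RNASE2 did not exceed 0.0340 TPM.

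In IgE receptor signalling, 13 genes were tested, of which 8 were lower and 1 higher. LCP2, the adaptor SLP-76, fell from 18.2 ± 0.608 to 3.76 ± 0.575 TPM (log2 fold change -2.02, limma adjusted p 2.6e-05). LYN, the Src kinase that phosphorylates the receptor, fell from 97.0 ± 1.66 to 60.3 ± 3.97 TPM (log2 fold change -0.68, limma adjusted p 0.00013). LAT2, a LAT-like adaptor, rose from 1.21 ± 0.0577 to 6.10 ± 0.686 TPM (log2 fold change 1.68, limma adjusted p 5.8e-05). Most of these kinases and adaptors also act in other blood cells, erythroid cells included.

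Lipid mediator genes went both ways, with 2 higher and 2 lower of 5 tested. PTGS1, cyclooxygenase 1, rose from 4.204 ± 0.641 to 26.8 ± 2.86 TPM (log2 fold change 2.42, limma adjusted p 2.3e-05). HPGDS, which makes prostaglandin D2 in mast cells, rose from 10.7 ± 2.57 to 38.2 ± 3.04 TPM (log2 fold change 1.76, limma adjusted p 8.6e-05). PLA2G4A, the phospholipase that releases arachidonic acid, fell from 5.02 ± 0.315 to 1.11 ± 0.546 TPM (log2 fold change -1.54, limma adjusted p 0.000493).

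Of the 16 surface receptors only 5 passed the filter. Each was read from a single gene row, that of IL3RA on chromosome Y, so reads placed at any other row of a symbol were left out. KIT, the SCF receptor, fell from 271 ± 18.6 to 122 ± 3.47 TPM, CSF2RB, the common beta chain of the IL-3, IL-5 and GM-CSF receptors, fell from 87.5 ± 3.93 to 25.9 ± 0.682 TPM, and IL4R rose from 22.6 ± 1.74 to 31.8 ± 1.88 TPM. The other 2 genes, named after their values were seen, are surface markers of basophils and mast cells, and neither passed the threshold. ENPP3, which encodes CD203c, was at 131 ± 12.4 TPM in the controls and 112 ± 11.98 TPM with the MEN1 shRNA (log2 fold change -0.24, 95% interval -0.46 to -0.01, limma adjusted p 0.0779). SIGLEC6 was at 42.4 ± 7.35 and 35.3 ± 6.63 TPM (log2 fold change -0.26, 95% interval -0.63 to 0.10, limma adjusted p 0.199).

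Of 15 transcription factor genes tested, 7 were lower and 3 higher. The rule named RUNX1, STAT5A and TAL1; RUNX1 fell from 34.8 ± 3.50 to 11.6 ± 1.42 TPM, STAT5A fell from 161 ± 10.6 to 98.9 ± 2.98 TPM, and TAL1 rose from 93.7 ± 1.38 to 158 ± 12.6 TPM. The following genes were named after their values were seen. GATA2, a factor of mast cell and basophil formation, fell from 157 ± 9.84 to 72.1 ± 17.8 TPM (limma log2 fold change -1.14, SE 0.172, adjusted p 0.00101). CEBPE, a factor of late granulocyte maturation, fell from 9.51 ± 2.25 to 1.497 ± 0.365 TPM (limma log2 fold change -2.06, SE 0.197, adjusted p 0.000133). MITF, a mast cell factor, was at 9.92 ± 0.252 and 11.0 ± 0.360 TPM, a difference short of the threshold (log2 fold change 0.13, limma adjusted p 0.212). GATA1, the erythroid GATA factor that mast cells and eosinophils share, was at 277 ± 6.22 TPM in the controls and 289 ± 2.26 TPM with the MEN1 shRNA, also short of the threshold (log2 fold change 0.06, 95% interval -0.05 to 0.17, limma adjusted p 0.328). None of the 5 MS4A neighbours, MS4A1, MS4A4A, MS4A6A, MS4A7 and MS4A14, passed the filter.

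**Figure D4:**
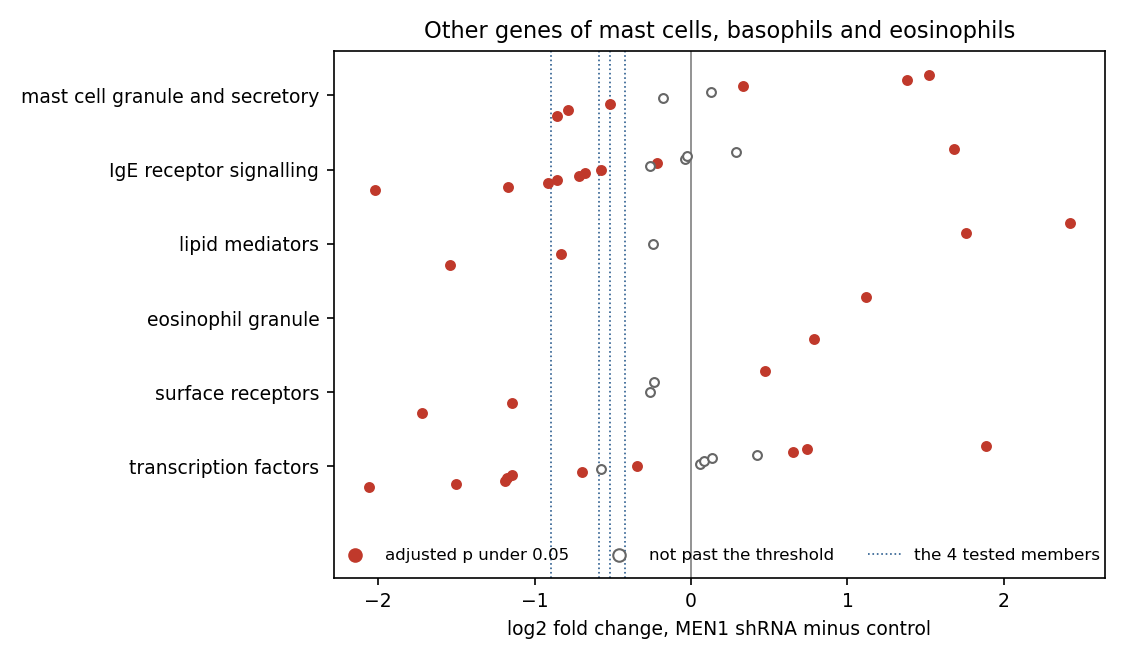
Log2 fold change (MEN1 shRNA minus control shRNA) of the 48 tested genes of 6 lists of mast cell, basophil and eosinophil genes, with 1 point per gene, filled where the limma adjusted p was under 0.05. Dotted lines mark the 4 tested members, from -0.90 (PRG2) to -0.42 (MS4A2); 22 genes were lower and 12 higher.

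Marker lists were read to see which cell types the libraries held. All 10 erythroid markers passed the filter. Their summed level was 45977 to 50076 TPM in the controls and 77393 to 85360 TPM with the MEN1 shRNA. Most of it was globin. HBB averaged 30237.5 TPM in the controls and 50170.5 TPM with the MEN1 shRNA, and HBA1 averaged 12208.2 and 23556.5 TPM. Of the 10, 8 were higher and none lower, and KLF1 and EPOR did not pass the threshold. Across all genes tested, 22.1% were called higher and 31.5% lower. The 8 mast cell markers outside the members summed to 421 to 502 TPM in the controls and 261 to 278 TPM with the MEN1 shRNA. More of either sum came from KIT, which erythroid progenitors also use, than from any other gene of the list, at 251 to 288 TPM in the controls and 118 to 124 TPM with the MEN1 shRNA, followed by TPSD1 and TPSG1 of the tryptase cluster. Of the 8, 5 passed the filter, 3 were lower and 1 higher, and MRGPRX2 is listed at 0 in every library. The 6 basophil markers summed to 271 to 314 TPM in the controls and 152 to 205 TPM with the MEN1 shRNA, nearly all of it GATA2 and ENPP3. The 7 eosinophil markers summed to 6.93 to 10.9 TPM and 1.09 to 1.79 TPM, nearly all of it CEBPE, while PRG3, RNASE3, SIGLEC8 and CCR3 are listed at 0. The summed mast cell, basophil and eosinophil markers were lower with the MEN1 shRNA. Because TPSD1 and TPSG1 are in it, the mast cell sum is no separate measure beside the tryptases. Single markers differed: HPGDS was higher, at 10.7 TPM in the control mean and 38.2 TPM with the MEN1 shRNA. SIGLEC6 and ENPP3 did not pass the threshold. The part of these markers in the differences of the members was not tested.

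The closest profiles were sought among tested genes with a symbol, leaving unnamed genes out. They were found by the smallest Euclidean distance between log2(TPM + 1) values over the 6 libraries, each gene centred on its own mean. For TPSAB1 they were ZNF516 (distance 0.0822) and SLX1A-SULT1A3 (0.114), and for TPSB2 they were KIAA1522 (0.0730) and PDIA4 (0.103). Among the genes with a symbol, TPSB2 came at place 3 in nearness to TPSAB1 (distance 0.125), and TPSAB1 at place 10 for TPSB2. For PRG2 they were GYG1 (0.283) and ADAM22 (0.346), and for MS4A2 they were MIF-AS1 (0.205) and RPGRIP1L (0.207). PRG2 lay at a distance of 0.996 from TPSAB1 and 0.913 from TPSB2. ZNF516 and ADAM22 reached 1 TPM in the controls alone, so they entered through the group where they were high. Adding 1 to TPM shrinks the change of such low genes. ZNF516 was at 51.8% of its control mean against 69.6% for TPSAB1, and ADAM22 at 18.8% against 52.2% for PRG2.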

How the data were processed

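Poly(A)-selected RNA of 6 HUDEP-2 libraries was profiled, per the labels' protocols. The submitters' processing notes name FastQC, Trimmomatic, STAR 2.7.1a, Picard 2.20.4, StringTie 2.0.4 and build hg38. Neither the annotation nor the strand setting is given in the sources used here. Per library, the TPM values that the authors deposited add up to 1000000, the deposited FPKM values are a fixed multiple of them, and the coverage column, so named per the file headers, was read as the authors' mean depth along a gene. In control replicate 2, 2 genes had values just below 0, which were set to 0. The tables used here hold no counts, so depth was inferred from coverage over FPKM in single-transcript genes, at 302 bases per read pair.

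MEN1 shRNA libraries were compared with control libraries in limma 3.58.1 (R 4.3.3; lmFit, eBayes with trend, 2-sided), tested on simulated data. Tables, figures and promoter searches used matplotlib 3.10.9, SciPy 1.17.1, NumPy 2.4.6 and pandas 2.3.3 under Python 3.11.15. Genes were named by rule: MEN1, the 10 members and, from each list, up to 3 called genes, those of lowest adjusted p. The rule also named, for each tested member, the 2 nearest profiles of genes with a symbol. The members and lists were chosen with earlier results of these data known. Alternatives covered the pseudocount, the filter, the scaling, the variance model, the replicate number and each library left out. One gene near the tryptase cluster is not reported here.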

Additional observations from a re-analysis of the deposited data

How the results depend on the processing

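The same 3 of the members, TPSAB1, TPSB2 and PRG2, and no other member, passed the threshold under each of the 17 alternatives planned. The tryptase sum kept its direction and call throughout, with log2 fold changes of -0.64 to -0.45 and limma adjusted p-values of 0.00193 to 0.0279. Over the alternatives TPSAB1 ran from -0.60 to -0.41, TPSB2 from -0.70 to -0.50 and PRG2 from -1.12 to -0.75, the last with its extremes without control replicates 2 and 3. MS4A2 ran from -0.69 to -0.18 and never passed; at a mean TPM of 5 or more it was not tested. Without a filter EPX had an adjusted p of 0.061. Counts of related genes called were 32 to 39 (34 with all libraries and the main settings), and those of all genes 6345 to 8033 (7657). A fit with the replicate numbers as a block called 7011 genes, 3 members and 35 related genes, and gave the tryptase sum an adjusted p of 0.0107. Deviations from the group means correlated by 0.0171, -0.0265 and -0.0124 between libraries of the same number, so the numbers were not taken to pair the libraries. Scaling by median of ratios moved the median log2 fold change of all genes from -0.07 to 0.0078 and left TPSAB1 at -0.43, TPSB2 at -0.50 and PRG2 at -0.81. The sum of PRG2 with its overlapping gene was chosen after seeing the data (-0.93). Depth limits HDC, CPA3, MS4A3, FCER1A, CLC and EPX, whose values rest on at most 20.9 inferred read pairs.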

Other observations

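The markers of other blood lineages that passed the filter are named here after their values were seen. AZU1, LYZ and CD3D reached 1 TPM in 1 group alone and so entered the test through the group where they were high; their values are given without a test. AZU1, azurocidin of neutrophil granules, was at 2.83, 1.32 and 2.55 TPM in the controls and at 0.129, 0.129 and 0.0682 TPM with the MEN1 shRNA. LYZ, lysozyme of neutrophils and monocytes, was at 1.67, 1.27 and 1.51 TPM in the controls and at 0.175, 0.268 and 0.151 TPM with the MEN1 shRNA. The 8 neutrophil and monocyte markers together summed to 3.76 to 5.33 TPM and 0.525 to 1.10 TPM. ITGA2B, the platelet integrin chain, was above 1 TPM in every library and fell from 33.8 ± 2.44 to 18.6 ± 2.35 TPM (log2 fold change -0.83, limma adjusted p 0.000456), while PF4 and PPBP are listed at 0 in all 6 libraries. CD3D, a T cell receptor subunit, was at 0.397 ± 0.356 TPM in the controls and 4.403 ± 1.24 TPM with the MEN1 shRNA, while CD3E did not exceed 0.0611 TPM.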
